A study of Mus musculus with 8 samples.

Results

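The 32 genes described here are Trp53, which encodes the tumour suppressor p53, and 31 genes known as p53 targets or as parts of its feedback control, read in mouse embryonic fibroblasts whose labels say they lack p53. They were chosen by gene symbol, and all 32 were found among the 39175 genes of the deposited tables. A list of 20 other targets, grouped under apoptosis, the inhibition of cyclin-dependent kinases or DNA repair, was kept apart from the 32 and is given near the end. The split is by list and not by function, and some of the 32 also serve these roles, such as Rrm2b in repair. The cells had the C57BL/6J background, and each genotype was read with and without ultraviolet light (UV). The 4 groups were p53-/-Cry1-/-Cry2-/- cells, called p53CryKO here, given 40 J/m2 from a lamp emitting mainly at 254 nm and harvested 16 h later; p53CryKO cells left untreated; p53-/- cells, called p53KO, given the same UV; and p53KO cells left untreated. Cry1 and Cry2 encode the cryptochromes, repressors of the circadian clock. Both genotypes, untreated cells included, are labelled p53-/-, so the series holds no cells with p53 to compare with. Each group had 2 biological replicates, 8 samples in all, and the labels do not say whether these came from separate animals.

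p53 is a transcription factor that is held at a low level by the ubiquitin ligase MDM2. After DNA damage, kinases free p53 from MDM2, and it binds a pair of short DNA half-sites near its targets and raises their transcription. Those targets include its own inhibitors, which close the feedback loop, and genes that slow growth, change metabolism and limit oxidative damage. In fibroblasts with p53 this programme is a main part of the answer to UV. Many of the genes also have other activators, such as stress kinases, ATF4 and FOXO factors.

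All levels are FPKM, by definition fragments scaled to transcript length in kilobases and to the number of fragments read. The authors pooled 1 value per gene and group over the replicates, so a level has no SD here. The deposited values do not add up to equal total fragments, taken as FPKM times exonic length. The UV-treated total was higher by 0.79 on the log2 scale in p53CryKO and by 0.78 in p53KO cells. How the authors scaled the groups to each other is not stated. Total counts per sample are unknown. Fold changes are UV over untreated on the log2 scale, and the error given with them is a standard error (SE) derived from the authors' test statistic. A gene is said to have risen or fallen after UV where q was 0.05 or less in the authors' deposited table. Fibroblast markers were read at summed FPKM of 6385 and 3826 in UV-treated and untreated p53CryKO cells and of 4428 and 4092 in UV-treated and untreated p53KO cells. Vim and S100a4 made up most of these sums. Of 9 tested markers, 4 rose and 4 fell in p53CryKO cells and 3 rose and 6 fell in p53KO cells. Among all tested genes, 25.1% rose and 27.2% fell in p53CryKO cells, and 23.9% rose and 26.9% fell in p53KO cells. Col1a1, Col1a2, Pdgfra and Pdgfrb were lower after UV in both genotypes, and Dcn, Thy1 and Vim were higher in both. Dcn had the largest change of these markers, with log2 fold changes of 1.90 in p53CryKO and 2.20 in p53KO cells. Lum, 1 of the 10, was listed at 0 in both p53CryKO groups. The pan-leukocyte marker Ptprc was at or below 0.00479 FPKM in the 4 groups. Summed FPKM of 6 immune markers was 11.9 and 3.11 in UV-treated and untreated p53CryKO cells and 12.96 and 2.55 in UV-treated and untreated p53KO cells, most of it Cd68. The sums of the endothelial, muscle and glial markers stayed at or below 1.43 FPKM. In bulk RNA, fewer cells that express a gene and less of its RNA per cell cannot be told apart.

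The promoters show which members carry p53 half-sites close to the gene start. RefSeq promoter windows of GRCm38.p6, 250 bases before to 50 after the start, were found for 27 of the 32 genes. The p53 half-site decamer, whose consensus reads the same on both strands, was present in 12 of 32 windows of these genes, 37.5%, against 8.36% of all 32851 windows. It lay in 11 genes: Aen, Ccng1, Ckap2, Ei24, Gtse1, Mdm2, Ppm1d, Rap2b, Rps27l, Sesn1 and Trp53. The 2 windows of Aen overlap and hold the same half-site, which therefore counts in both windows. A pair of half-sites with at most 13 bases between them was present in 0 of the 32 windows and in 0.0731% of all windows. Each half-site had to match the consensus at every base, so a pair with a mismatch was not counted. In Ccng1, the stretch directly before the marked half-site comes close to the consensus without matching it. The count of 0 therefore does not say that these windows lack a paired site. Among the 11 genes with a half-site, 1 rose and 5 fell after UV in p53CryKO cells, and 3 rose and 4 fell in p53KO cells, with 1 of the 11 not tested in p53CryKO cells. Of the 16 genes whose windows held no match, 6 rose and 5 fell in p53CryKO cells, and 2 rose and 4 fell in p53KO cells, with 3 not tested in p53CryKO and 2 not tested in p53KO cells. Of all tested genes, 25.1% rose and 27.2% fell in p53CryKO cells and 23.9% rose and 26.9% fell in p53KO cells, and with so few genes the counts are a description. A match is a stretch of letters and not a shown binding site, and a window with no match says nothing of sites elsewhere in the gene. Upstream sequences of 4 of the 11 genes are printed because these 4 went different ways although each holds a match. After UV, on the authors' scale, Sesn1 and Ppm1d fell in both genotypes, Mdm2 fell in p53CryKO cells and Ccng1 rose in p53KO cells. With the groups at equal total fragments the p53KO value of Ccng1 turned to -0.11. Capitals mark the half-site.
Sesn1, second of 2 listed starts, plus strand, chr10:41887189-41887438 of GRCm38.p6: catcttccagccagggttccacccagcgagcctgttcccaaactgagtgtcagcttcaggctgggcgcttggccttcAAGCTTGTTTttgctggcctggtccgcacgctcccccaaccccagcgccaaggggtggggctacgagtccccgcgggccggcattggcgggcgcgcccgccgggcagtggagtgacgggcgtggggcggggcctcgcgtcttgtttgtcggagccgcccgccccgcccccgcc
Ppm1d, plus strand, chr11:85311004-85311253: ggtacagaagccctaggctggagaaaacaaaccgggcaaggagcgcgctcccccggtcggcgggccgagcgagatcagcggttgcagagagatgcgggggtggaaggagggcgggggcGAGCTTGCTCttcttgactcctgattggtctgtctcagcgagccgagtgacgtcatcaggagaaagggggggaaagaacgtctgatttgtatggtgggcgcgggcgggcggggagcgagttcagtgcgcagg
Mdm2, minus strand, chr10:117710759-117711008: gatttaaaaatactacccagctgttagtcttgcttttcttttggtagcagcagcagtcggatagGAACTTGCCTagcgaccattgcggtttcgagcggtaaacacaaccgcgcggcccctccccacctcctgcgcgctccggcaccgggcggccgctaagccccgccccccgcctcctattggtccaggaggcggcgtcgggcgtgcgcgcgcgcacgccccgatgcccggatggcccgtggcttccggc
Ccng1, minus strand, chr11:40755287-40755536: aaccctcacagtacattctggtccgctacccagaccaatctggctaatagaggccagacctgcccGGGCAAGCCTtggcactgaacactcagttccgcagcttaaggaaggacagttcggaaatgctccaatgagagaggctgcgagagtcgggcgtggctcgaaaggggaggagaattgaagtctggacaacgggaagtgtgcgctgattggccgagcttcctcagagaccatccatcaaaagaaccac

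The first question was how far the known targets still responded to UV in cells labelled as lacking p53. In p53CryKO cells 28 of the 32 genes were tested by the authors, of which 8 rose and 13 fell. Over all tested genes of that table, 25.1% rose and 27.2% fell, 52.3% in either direction. In p53KO cells 30 were tested, of which 6 rose and 10 fell, beside 23.9% and 26.9% of all tested genes, 50.9% in either direction. The share that rose lay near that of all genes in both genotypes, as did the share that fell in p53KO cells. The 13 of 28 that fell in p53CryKO cells are a larger share than the 27.2% of all genes, and the list itself was not tested. The median log2 fold change of the tested members, at any level, was -0.30 in p53CryKO cells and 0.11 in p53KO cells. At an FPKM minimum of 1 it was -0.22 and 0.18, against 0.05 and 0.05 for all genes tested at that minimum. Counts depend on the test and on how the groups are scaled. A normal p from the SE, which is on the wide side, left 5 rises and 11 falls in p53CryKO cells at the authors' scale. In p53KO cells it left 4 rises and 9 falls. The shares of all genes under that test at the authors' scale were not counted. Setting the groups to equal total fragments lowers each log2 fold change by 0.79 in p53CryKO and 0.78 in p53KO cells. With that scale and the same test, 2 rose and 15 fell in p53CryKO cells (background 5.51% and 39.4%), and 3 rose and 13 fell in p53KO cells (background 5.75% and 37.1%). With that scale and SEs divided by the factor that matches the authors' p-values, 3 rose and 20 fell in p53CryKO cells (background 9% and 47.6%), and 3 rose and 19 fell in p53KO cells (background 9.48% and 45%).

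Btg2 and Rps27l rose in both genotypes, and Plk3 in p53KO cells, at equal total fragments with either SE. The p53CryKO rise of Plk3 passed there with the narrower SE and not with the wide one. The rises of Dcxr and Perp in p53CryKO cells and of Ccng1 in p53KO cells passed the normal test at the authors' scale and were lost at equal total fragments. Those of Foxo3, Ephx1 and Pltp in p53CryKO cells and of Perp and Aen in p53KO cells were lost with the wide SE alone. Calls were also gained at equal total fragments with the wide SE: Mdm2, Foxo3, Rap2b and Epha2 fell in p53KO cells, and Prkab1, Ei24 and Ckap2 fell in p53CryKO cells.

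The genotypes shared 12 of these calls. The 4 genes that rose in both were Btg2, Plk3, Perp and Rps27l, and the 8 that fell in both were Ppm1d, Zmat3, Sesn1, Sesn2, Fdxr, Phlda3, Ptp4a3 and Gtse1. Of the 14933 genes tested in both tables, 20.8% rose in both and 24.1% fell in both. The log2 fold changes of the 28 members tested in both had the same sign in 23 of 28, against 90.5% of 12300 genes with FPKM of 1 or more. The 28 were taken at any level, and 27 of them are among the 12300. Their correlation between genotypes was r = 0.89 over the 28 members and r = 0.92 over the 12300 genes, given as a description, since the genes of a table share its libraries. No member rose in one genotype and fell in the other, as 0.154% of all genes tested in both did. The other genes passed in one genotype or in neither: 4 rose in p53CryKO cells without passing in p53KO cells (Foxo3, Ephx1, Dcxr and Pltp), 5 fell there without passing in p53KO cells (Mdm2, Trp53inp1, Plk2, Rap2b and Epha2), and in p53KO cells 2 others rose (Ccng1 and Aen) and 2 others fell (Ei24, and Eda2r, which was not tested in p53CryKO cells). Mdm4, Prkab1, Rrm2b and Ckap2 passed in neither. Trp53 did not pass in p53KO cells and its test failed in p53CryKO cells, and Cd80 and Trp53i11 were not tested in either.

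**Figure D1:**
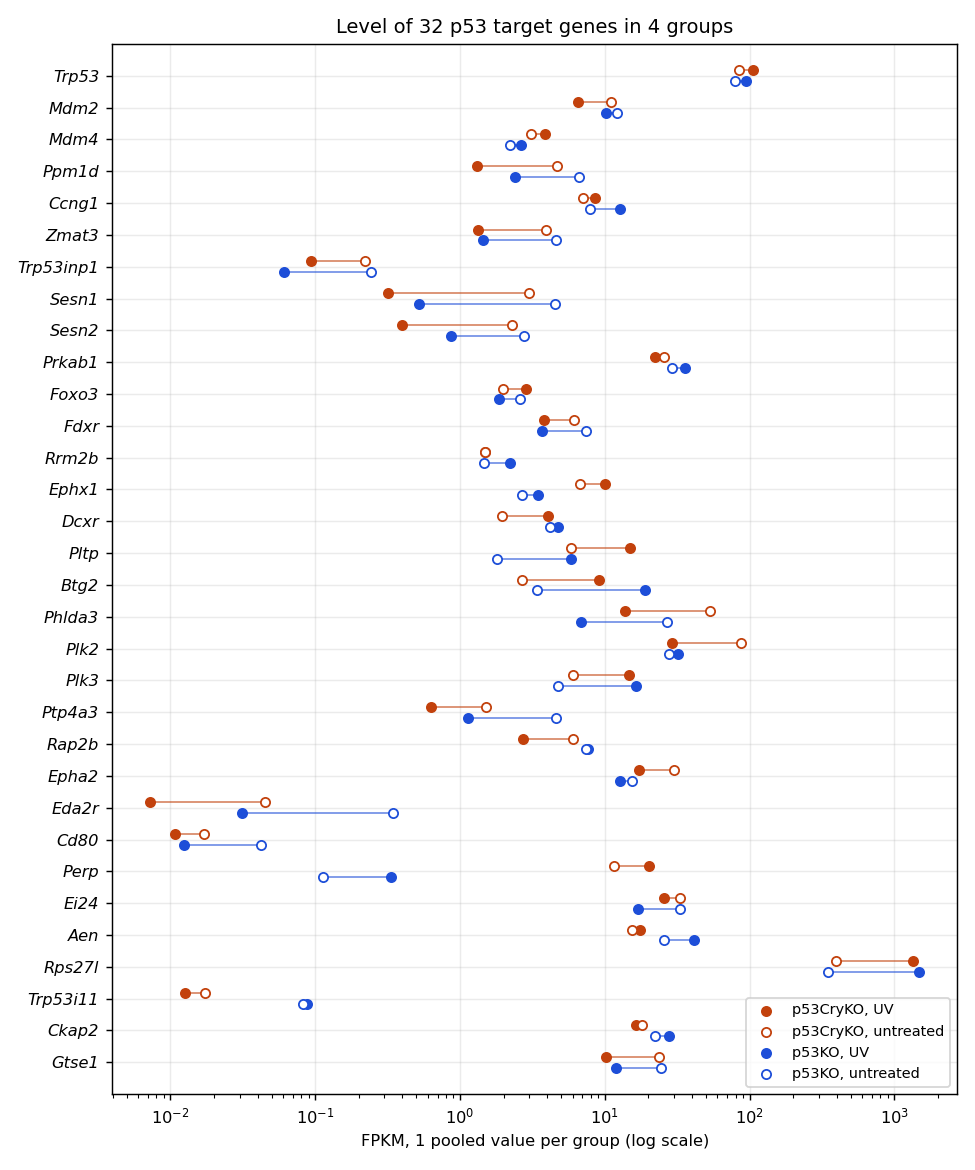
FPKM of the 32 genes (log axis, 1 value per group as pooled by the authors) in UV-treated (filled) and untreated (open) p53CryKO (orange) and p53KO cells (blue), with a line joining the values of a genotype. Rps27l is the most abundant, at 348 to 1479 FPKM, and Perp is the gene whose genotypes lie farthest apart.

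**Figure D2:**
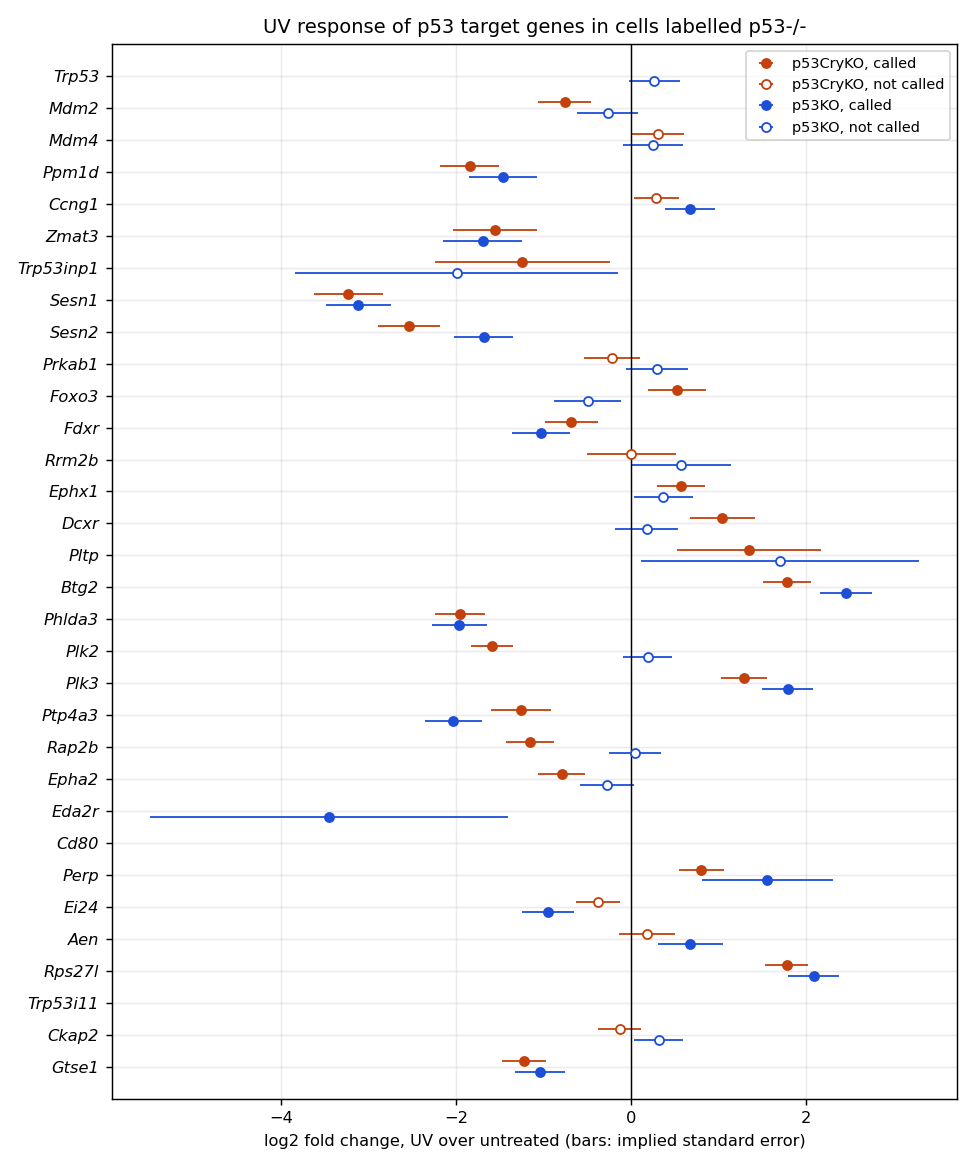
Log2 fold change of each tested gene, UV over untreated, in p53CryKO (orange, upper point) and p53KO cells (blue, lower point), with bars of 1 SE derived from the authors' statistic. Filled points are genes called by the authors' deposited table at its q threshold of 0.05. Sesn1 lies near -3 in both genotypes and Btg2 lies highest, and Plk2 is filled in p53CryKO cells only.

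p53 and its feedback regulators mostly fell or did not pass. Trp53 itself (ENSMUSG00000059552, chromosome 11, 69580359 to 69591873 of GRCm38) was read at 106 FPKM in UV-treated and 84.4 in untreated p53CryKO cells and at 94.96 in UV-treated and 78.8 in untreated p53KO cells. The files do not tell where in Trp53 the deletion lies, and a level over the whole gene is no check of the genotype labels. Mdm2 (chromosome 10, 117688875 to 117710758), which encodes the ligase that degrades p53, had 6.57 FPKM in UV-treated and 11.1 in untreated p53CryKO cells, and 10.1 in UV-treated and 12.2 in untreated p53KO cells. It fell in p53CryKO cells (log2 fold change -0.76, SE 0.31; q = 0.000597 in the authors' deposited table) and did not pass in p53KO cells (-0.27, SE 0.34), where the value was -1.05 and passed at equal total fragments (Benjamini-Hochberg adjusted p = 0.00693 over all tested genes). The UV-treated p53CryKO value is the low one of the 4. Mdm4, whose product binds and inhibits p53, kept values of 3.85 and 3.11 FPKM in UV-treated and untreated p53CryKO cells and of 2.65 and 2.23 in UV-treated and untreated p53KO cells. It passed in neither.

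Ppm1d encodes WIP1, a phosphatase that reverses damage signalling to p53. It fell to 1.31 FPKM in UV-treated p53CryKO cells, against 4.70 untreated, and to 2.39 in UV-treated p53KO cells, against 6.59 untreated. Its log2 fold changes were -1.85 (SE 0.34) and -1.47 (SE 0.39), at the smallest q of each of the authors' deposited tables. Zmat3, an RNA-binding zinc finger protein, fell in both genotypes, to 1.33 FPKM in UV-treated p53CryKO cells against 3.92 untreated and to 1.43 in UV-treated p53KO cells against 4.63 untreated. Ccng1, which encodes cyclin G1, a partner of MDM2 and of a phosphatase that acts on it, had 8.58 FPKM in UV-treated and 7.02 in untreated p53CryKO cells, and 12.7 in UV-treated and 7.93 in untreated p53KO cells. It rose in p53KO cells on the authors' scale (log2 fold change 0.67, SE 0.29) and turned to -0.11 with the groups at equal total fragments. Trp53inp1, a nuclear cofactor of p53, was low in all 4 groups, with 0.0939 and 0.222 FPKM in UV-treated and untreated p53CryKO cells and 0.0610 and 0.243 in UV-treated and untreated p53KO cells. It passed in p53CryKO cells at a log2 fold change of -1.24 whose SE was 1.00, with q = 0.0278 in the authors' deposited table. That call was lost with the wide SE at either scale, and at the authors' scale with the narrower one.

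Both sestrins fell in both genotypes, and among members with FPKM of 1 or more Sesn1 had the lowest log2 fold change in each when no pseudocount was added. With a pseudocount of 1, Sesn1 stood at -1.59 in p53CryKO and -1.86 in p53KO cells and Sesn2 at -1.24 and -1.02, and Phlda3 was lower than Sesn1 in p53CryKO cells (-1.88). Sestrins are leucine-sensing proteins that restrain the growth kinase complex mTORC1 and take part in antioxidant defence. Sesn1 (chromosome 10, 41809935 to 41908424) had 0.318 FPKM in UV-treated and 2.98 in untreated p53CryKO cells, and 0.519 in UV-treated and 4.50 in untreated p53KO cells. The untreated levels were 9.38 and 8.67 times the UV-treated ones. A lower log2 fold change than that of Sesn1 was found in 0.857% of the genes tested at that minimum in p53CryKO and in 1.19% in p53KO cells (Sesn1 at -3.23, SE 0.40, and at -3.12, SE 0.37). Sesn2 (chromosome 4, 132492032 to 132510501), which is also a target of ATF4, had 0.396 FPKM in UV-treated and 2.30 in untreated p53CryKO cells and 0.867 in UV-treated and 2.79 in untreated p53KO cells. Its log2 fold changes were -2.54 (SE 0.36) and -1.69 (SE 0.34). The difference between the genotypes, -0.85 with a 95% interval of -1.82 to 0.11, did not pass.

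Other metabolic targets split. Fdxr, which encodes the mitochondrial ferredoxin reductase, fell in both genotypes, to 3.81 FPKM in UV-treated p53CryKO cells against 6.11 untreated and to 3.66 in UV-treated p53KO cells against 7.46 untreated. Its p53CryKO call was lost with the wide SE at the authors' scale (Benjamini-Hochberg adjusted p = 0.0589 over all tested genes). At equal total fragments the fall passed with either SE. Prkab1, a regulatory subunit of the energy sensor AMPK, stayed between 22.1 and 36.1 FPKM and passed in neither. Rrm2b, the p53-inducible subunit of ribonucleotide reductase, which makes deoxyribonucleotides for repair, was read at 1.496 and 1.491 FPKM in UV-treated and untreated p53CryKO cells and at 2.20 and 1.47 in UV-treated and untreated p53KO cells, and passed in neither. Foxo3, a stress-regulated transcription factor, rose in p53CryKO cells (2.86 FPKM after UV, 1.99 untreated) and stood at 1.86 and 2.61 in UV-treated and untreated p53KO cells without passing. At equal total fragments the log2 fold change was -0.26 in p53CryKO cells, where it did not pass, and -1.28 in p53KO cells, where it passed as a fall.

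Ephx1, the microsomal epoxide hydrolase, and Dcxr, a carbonyl reductase, also rose in p53CryKO cells. Ephx1 had 10.1 and 6.77 FPKM in UV-treated and untreated p53CryKO cells and 3.48 and 2.69 in UV-treated and untreated p53KO cells, and its rise turned to -0.22 at equal total fragments. Dcxr had 4.03 and 1.95 FPKM in UV-treated and untreated p53CryKO cells and 4.74 and 4.19 in UV-treated and untreated p53KO cells. The untreated p53CryKO value is the low one of the 4. Pltp, which encodes the phospholipid transfer protein, had 15.0 and 5.87 FPKM in UV-treated and untreated p53CryKO cells and 5.84 and 1.79 in UV-treated and untreated p53KO cells. Its log2 fold changes of 1.35 (SE 0.82) and 1.71 (SE 1.59) carried wide errors, and it passed in p53CryKO cells (q = 0.0415 in the authors' deposited table) and not in p53KO cells (q = 0.182 there). Exons of Pltp overlap those of Ctsa on the other strand, and no source used here says whether counting used strand. Exons of Plk3, Rap2b, Ei24 and Rrm2b also overlap gene models on the other strand. Those of Ephx1 overlap a model on the same strand, whose fragments strand cannot tell apart.

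Among the genes that restrain growth, Btg2 and Phlda3 went opposite ways. Btg2 (chromosome 1, 134075170 to 134079120), an antiproliferative gene that also responds to growth factors as an immediate-early gene, rose to 9.19 FPKM in UV-treated p53CryKO cells against 2.67 untreated, and to 18.8 in UV-treated p53KO cells against 3.42 untreated. Those are log2 fold changes of 1.78 (SE 0.27) and 2.46 (SE 0.30), the second being higher than 96.9% of tested genes in p53KO cells. Phlda3 (chromosome 1, 135766119 to 135769136), whose product competes with the kinase AKT for membrane lipids, fell to 13.8 FPKM in UV-treated p53CryKO cells against 53.6 untreated, and to 6.85 in UV-treated p53KO cells against 26.7 untreated. Its levels in p53CryKO cells were 2.01 times those in p53KO cells both with and without UV, and its log2 fold changes, -1.96 (SE 0.29) and -1.96 (SE 0.32), differed by 0.00 with a 95% interval of -0.83 to 0.84. The genotypes come from separate tables, and no source used here says that these share a normalization, so levels across them are set side by side without a test.

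The polo-like kinases Plk2 and Plk3 are stress-responsive relatives of the mitotic kinase PLK1. Plk3 (chromosome 4, 117128655 to 117133963) rose in both genotypes, to 14.7 FPKM in UV-treated p53CryKO cells against 6.04 untreated and to 16.3 in UV-treated p53KO cells against 4.72 untreated. Plk2 (chromosome 13, 110395046 to 110400844) had 29.0 FPKM in UV-treated and 87.3 in untreated p53CryKO cells, and 31.8 in UV-treated and 27.8 in untreated p53KO cells. The untreated p53CryKO value stands apart at 3.14 times the untreated p53KO value, while the UV-treated p53CryKO value was 0.912 times the UV-treated p53KO value. Plk2 fell in p53CryKO cells (log2 fold change -1.59, SE 0.24) and did not pass in p53KO cells (0.19, SE 0.28). The p53KO value turned to -0.59 at equal total fragments, which passed with the narrower SE and not with the wide one. The difference between the genotypes was -1.78 (SE 0.37, 95% interval -2.51 to -1.05), with a Benjamini-Hochberg adjusted p of 0.00222 over the 12300 genes of that test. Of those 12300 genes 0.179% passed, 22 in number, and of the 27 members that entered the test only Plk2 did.

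Rap2b, a small GTPase of the RAS family, came next to Plk2. It had 2.70 and 6.03 FPKM in UV-treated and untreated p53CryKO cells and 7.61 and 7.36 in UV-treated and untreated p53KO cells, and the fitted difference was -1.21 with a 95% interval of -2.0 to -0.42. The Benjamini-Hochberg adjusted p across the 12300 genes was 0.399, so it did not pass. With SEs divided by the factor that matches the authors' p-values, a setting at which 1.72% of all genes passed, Rap2b joined Plk2. It fell in p53CryKO cells (log2 fold change -1.16, SE 0.27), and its p53KO value of 0.05 turned to -0.73, past the threshold, at equal total fragments. The unadjusted p was under 0.05 for 3 members, Plk2, Rap2b and Foxo3, and for 3.03% of the 12300 genes. Of the 27 members 18 had a more negative response in p53CryKO than in p53KO cells, with a median difference of -0.38, against 53.4% and a median of -0.03 for all 12300 genes.

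**Figure D3:**
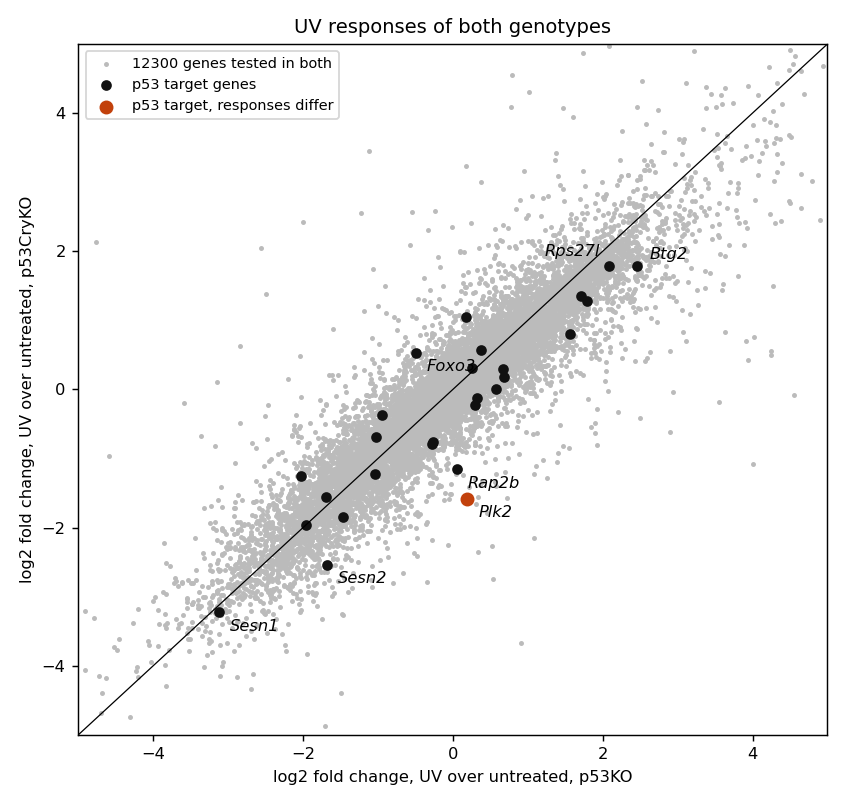
Log2 fold change after UV in p53CryKO cells (vertical) against p53KO cells (horizontal) for 12300 genes tested in both (grey) and the 27 p53 target genes among them (black, with Plk2 in orange); the line marks equal responses and 64 genes lie outside the axes. Plk2 and Rap2b lie below the line near 0 on the p53KO axis.

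The surface and signalling members included Ptp4a3, which fell in both genotypes, and several genes with very low levels. Ptp4a3, a phosphatase of the PRL family, fell to 0.630 FPKM in UV-treated p53CryKO cells against 1.503 untreated and to 1.13 in UV-treated p53KO cells against 4.62 untreated. Epha2, an ephrin receptor, fell in p53CryKO cells (17.3 FPKM after UV, 29.9 untreated) and had 12.7 and 15.4 in UV-treated and untreated p53KO cells without passing. Eda2r, the receptor for ectodysplasin A2, fell in p53KO cells, to 0.0314 FPKM after UV against 0.344 untreated, and had 0.00727 and 0.0449 in UV-treated and untreated p53CryKO cells, where it was not tested. Its log2 fold change of -3.45 carried an SE of 2.04, and the call was lost with the wide SE at either scale (Benjamini-Hochberg adjusted p = 0.184 over all tested genes at the authors' scale). Cd80, a costimulator of T cells, stayed between 0.0108 and 0.0423 FPKM, and Trp53i11 between 0.0125 and 0.0879.

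Perp, which encodes a tetraspan membrane protein of desmosomes, differed most between the genotypes in level. Perp (chromosome 10, 18845020 to 18857073) had 20.1 FPKM in UV-treated and 11.5 in untreated p53CryKO cells, against 0.334 in UV-treated and 0.113 in untreated p53KO cells. The untreated p53CryKO level was 102 times the untreated p53KO level, a ratio of 100 or more in either direction being reached by 0.379% of 11604 genes with FPKM of 1 or more in an untreated group. A ratio of 5 or more was reached by 3.82% of those genes and, among members at that level, by Perp. Perp rose after UV in both genotypes (log2 fold change 0.81, SE 0.26, in p53CryKO and 1.56, SE 0.75, in p53KO cells), and at equal total fragments these values were 0.01 and 0.77, neither of which passed. Of 6 epithelial markers, 4 were also higher in both p53CryKO groups. The summed FPKM of all 6 was 20.1 and 11.7 in UV-treated and untreated p53CryKO cells and 0.371 and 0.309 in UV-treated and untreated p53KO cells. In untreated p53CryKO cells Krt14 stood at 4.95, Cdh1 at 3.33, Krt8 at 1.93 and Krt18 at 1.45 FPKM, each at or below 0.132 in untreated p53KO cells, while Epcam and Krt5 were at or below 0.0862 in all 4 groups. The part of these markers in the level of Perp was not tested.

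**Figure D4:**
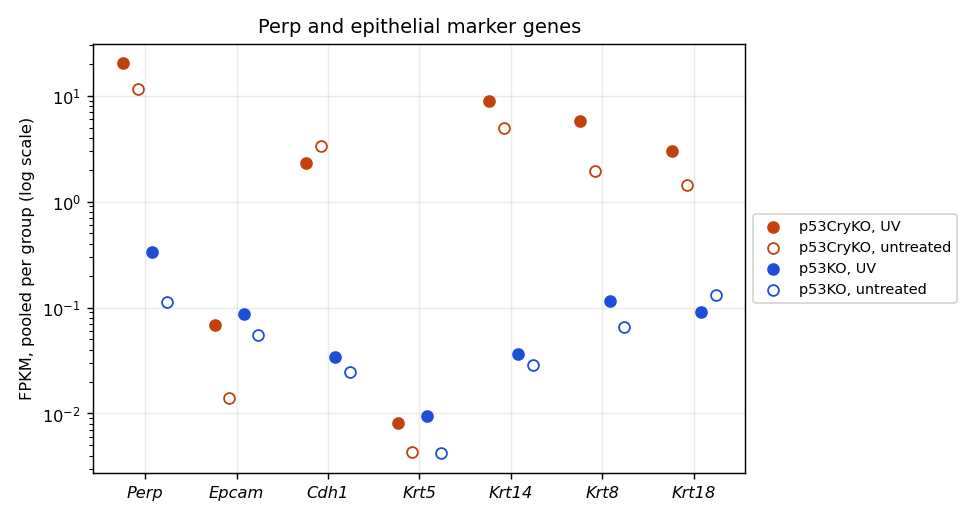
FPKM (log axis, 1 pooled value per group) of Perp and 6 epithelial marker genes in UV-treated (filled) and untreated (open) p53CryKO (orange) and p53KO cells (blue). Perp, Cdh1, Krt14, Krt8 and Krt18 lie higher in both p53CryKO groups than in both p53KO groups, and Epcam and Krt5 are low in all 4.

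Untreated levels of the other members were closer. Of 28 members with FPKM of 1 or more in an untreated group, 7 differed by 2 times or more between the genotypes, against 13.2% of all such genes. Those higher in p53CryKO cells were Perp, Pltp at 3.28 times, Plk2 at 3.14, Ephx1 at 2.51 and Phlda3 at 2.01 times the p53KO level. Ptp4a3 at 0.325 and Dcxr at 0.466 times were lower in p53CryKO cells. The median over all 11604 genes was a log2 ratio of -0.07 (p53CryKO over p53KO).

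The remaining members act at the endoplasmic reticulum, the nucleolus and the ribosome. Ei24, a protein of the endoplasmic reticulum membrane linked to autophagy, fell in p53KO cells (17.1 FPKM after UV, 32.9 untreated). In p53CryKO cells it had 25.7 and 33.3 FPKM in UV-treated and untreated cells, with q = 0.0514 in the authors' deposited table. Aen, a nuclear exonuclease, rose in p53KO cells (41.0 FPKM after UV, 25.6 untreated), a change that turned to -0.10 at equal total fragments, and had 17.4 and 15.4 in UV-treated and untreated p53CryKO cells. Rps27l, a close relative of the ribosomal protein gene Rps27, was by far the most abundant member. It rose to 1345 FPKM in UV-treated p53CryKO cells against 392 untreated, and to 1479 in UV-treated p53KO cells against 348 untreated. With 816 exonic bases it is also the shortest member, and for protein-coding genes under 1000 exonic bases the median log2 fold change was 1.41 over 267 genes in p53CryKO and 1.41 over 263 genes in p53KO cells. The value of Rps27l was 1.78 (SE 0.25) in p53CryKO and 2.09 (SE 0.29) in p53KO cells. The part of transcript length in this rise was not tested, and fragments shared with Rps27 or with pseudogene copies may make its level uncertain.

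The mitotic members, Ckap2, a spindle protein, and Gtse1, which binds p53 and carries it out of the nucleus, were read beside 18 other mitotic genes. Gtse1 fell in both genotypes, to 10.2 FPKM in UV-treated p53CryKO cells against 23.7 untreated and to 11.9 in UV-treated p53KO cells against 24.4 untreated. Ckap2 had 16.5 and 18.1 FPKM in UV-treated and untreated p53CryKO cells and 27.7 and 22.3 in UV-treated and untreated p53KO cells and passed in neither. Of the 18 mitotic genes, 4 rose and 9 fell in p53CryKO cells and 3 rose and 9 fell in p53KO cells. The largest changes were falls in Ccnf, Cdk1 and Ccna2 in p53CryKO cells (log2 fold changes -4.40, -2.15 and -1.64) and in Ccnf, Cdk1 and Aurkb in p53KO cells (-4.69, -3.44 and -2.0). Beside them stand 25.1% and 27.2% of all genes in p53CryKO and 23.9% and 26.9% in p53KO cells. At equal total fragments with the wide SE, 0 of the 18 rose and 12 fell in either genotype, where 39.4% of all genes fell in p53CryKO and 37.1% in p53KO cells.

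The p53 targets of apoptosis, cell cycle arrest and repair that were kept apart from the 32 genes were mixed as well. Of 20 such genes, all tested, 5 rose and 10 fell in p53CryKO cells, and 5 rose and 10 fell in p53KO cells, beside falls in 27.2% and 26.9% and rises in 25.1% and 23.9% of all genes. Their median log2 fold change was -0.44 in p53CryKO and -0.73 in p53KO cells. Gadd45a, a stress sensor with many activators, rose to 51.2 FPKM in UV-treated p53CryKO cells against 9.20 untreated and to 128 in UV-treated p53KO cells against 15.3 untreated. Bcl2l1, Bid and Polh fell in both genotypes, with log2 fold changes from -2.57 to -2.15. Cdkn1a, which encodes the cell cycle inhibitor p21, rose in both, by 2.38 (SE 0.37) in p53CryKO and 0.66 (SE 0.31) in p53KO cells. Its levels were 4.23 and 0.809 FPKM in UV-treated and untreated p53CryKO cells and 6.67 and 4.21 in UV-treated and untreated p53KO cells. The untreated p53CryKO level is the low one of the 4. At equal total fragments the p53KO change turned to -0.12. On that scale with the wide SE, 2 of the 20 rose and 13 fell in p53CryKO cells (all genes 5.51% and 39.4%), and 2 rose and 12 fell in p53KO cells (all genes 5.75% and 37.1%).

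Among 30 regulators of p53, such as its kinases, acetyltransferases and ligases, 9 rose and 10 fell of 28 tested in p53CryKO cells, and 8 rose and 11 fell of 29 tested in p53KO cells. The shares of all genes were 25.1% and 27.2% in p53CryKO and 23.9% and 26.9% in p53KO cells. At equal total fragments with the wide SE, 2 rose and 16 fell in p53CryKO cells (all genes 5.51% and 39.4%), and 2 rose and 13 fell in p53KO cells (all genes 5.75% and 37.1%). The acetyltransferase genes Crebbp and Ep300 fell in both genotypes. Crebbp had 0.382 and 1.31 FPKM in UV-treated and untreated p53CryKO cells and 0.604 and 2.61 in UV-treated and untreated p53KO cells, and Ep300 had 1.38 and 5.01 in UV-treated and untreated p53CryKO cells and 2.04 and 6.47 in UV-treated and untreated p53KO cells. The ribosomal protein genes Rpl5 and Rpl23, whose products bind MDM2, rose in both (log2 fold changes 1.88 and 1.76 in p53CryKO and 2.63 and 1.85 in p53KO cells). Trp73, a p53 relative able to bind the same half-sites, was listed at 0 in all 4 groups. Trp63, the other relative, had 0.0177 and 0.0360 FPKM in UV-treated and untreated p53CryKO cells and 0.652 and 1.20 in UV-treated and untreated p53KO cells, and it fell in p53KO cells.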

How the data were processed

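Poly(A)-selected RNA of 8 samples was sequenced as paired ends, per the labels' protocols. Per the submitters' processing notes, the tools were Trimmomatic 0.35, FastQC 0.11.5, STAR 2.5.2, Cuffdiff and Cufflinks, and the build was GRCm38. Their options are not stated. Per the file headers, the authors deposited 1 Cuffdiff table per genotype with FPKM pooled per group, a signed test statistic (a score), p-value and q-value. Another deposited table, which repeats part of these values, was not used. Genes of a status other than OK count as not tested.

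Log2 fold changes were computed from the deposited FPKM with no pseudocount. The SE is the absolute log2 fold change over the absolute statistic. It is on the wide side, because the statistic falls short of the normal quantile that the deposited p-value implies, by a median factor of 1.43 in both genotypes. The smallest p of the authors' test is 5e-05, and 14 members in p53CryKO and 12 in p53KO cells share it. The p-values rest on 2 cultures a group, whose spread may be technical, and how the authors' test modelled that spread is not stated. The SE was nearly equal for several genes, in p53KO cells 0.280 for Plk2, 0.281 for Ckap2 and 0.281 for Gtse1. The p-values therefore need not measure the spread of each gene by itself. The genotype difference is p53CryKO minus p53KO over its SE, with a normal p and Benjamini-Hochberg adjustment over 12300 genes tested in both tables with FPKM of 1 or more in a group, and was tested on simulated data with 200 changed genes. Equal total fragments used FPKM times exonic length of GENCODE M21. Tests on that scale took a normal p from the SE, wide or divided by 1.43 (the narrower SE), adjusted over all tested genes, so the test changes along with the scale. Symbols of 4 list genes were matched by gene ID. All 32 members are named. From the other lists, Cdkn1a and up to 3 called genes with the largest change per genotype are named. Trp63, Trp73 and the low or absent cell type markers (Lum, Ptprc, Cdh1, Epcam, Krt5) were chosen after their values were seen. The same holds for the fibroblast markers Col1a1, Col1a2, Pdgfrb, Vim and S100a4. The members, lists, tests and settings were chosen with earlier results of these data known. Python 3.11.15 with numpy 2.4.6, pandas 2.3.3, scipy 1.17.1 and matplotlib 3.10.9 was used.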

Additional observations from a re-analysis of the deposited data

Results flagged for a closer look

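The UV response of Plk2 differed between the genotypes in the test of the difference itself, by -1.78 on the log2 scale (p53CryKO minus p53KO). The value rests on pooled FPKM of 29.0 and 87.3 in UV-treated and untreated p53CryKO cells and of 31.8 and 27.8 in UV-treated and untreated p53KO cells, without a level per replicate.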

How the results depend on the processing

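With the groups at equal total fragments and a normal p from the wide SE, 2 members rose in p53CryKO and 3 in p53KO cells. There 5.51% and 5.75% of all genes rose. The median log2 fold change of the members was -1.09 and -0.67. That scale lowers every gene alike, by 0.79 in p53CryKO and 0.78 in p53KO cells. For all genes tested with FPKM of 1 or more, the median before that shift was 0.05 in both. Single genes that turned and passed in the authors' test or on that scale were Foxo3 (-0.26) and Ephx1 (-0.22) in p53CryKO cells. In p53KO cells these were Ccng1 (-0.11), Aen (-0.10) and Rap2b (-0.73). Members that passed in neither also turned from positive to negative. They were Mdm4, Ccng1, Rrm2b and Aen in p53CryKO cells. In p53KO cells they were Trp53, Mdm4, Prkab1, Rrm2b, Ephx1, Dcxr, Plk2 and Ckap2. With the same scale and an SE divided by the factor of 1.43, chosen after seeing the data, 3 rose and 20 fell in p53CryKO cells and 3 rose and 19 fell in p53KO cells, where 47.6% and 45% of all genes fell. Centred on the median gene and tested with the wide SE, 5 rose in p53CryKO and 3 in p53KO cells. That SE alone, at the authors' scale, left 5 rises in p53CryKO cells, and a minimum log2 fold change of 1 also left 5. Shares of all genes were not counted when centred, with that SE alone or at that minimum. These counts therefore do not tell the members from other genes. At q of 0.01 or FPKM of 1 or more the counts stayed within 1.5 times. The median of the members was -0.19 in p53CryKO and 0.09 in p53KO cells with a pseudocount of 1, and -0.22 and 0.18 at FPKM of 1 or more. The narrower SE raised the members that differ between genotypes to 2, Plk2 and Rap2b, where 1.72% of all genes passed. No paired analysis was possible because the deposited columns hold 1 pooled value per group; for the same reason no replicate could be left out. Depth per sample is unknown, which limits the reading of Cd80, Eda2r, Trp53i11 and Trp53inp1 in particular.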
